A study of Mus musculus with 4 samples.

Results

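The genes described here encode 8 calcium-binding proteins of neurons, namely Calb1, Calb2, Hpca, Hpcal4, Ncald, Vsnl1, Calm2 and Calm3. They were taken by symbol from a fixed list, and all 8 were among the 32285 genes counted. The study used Visium spatial transcriptomics, in which a tissue section lies on an array of barcoded spots and the transcripts beneath each spot are counted as unique molecular identifiers (UMIs), to compare brains of mice that had or had not formed a memory of a shock zone. A single coronal section holding the dorsal hippocampus was profiled from each of 4 male mice, aged 3 to 4 months, so the section is the replicate and there were 2 trained and 2 untrained sections. All 4 mice carried ArcCreERT2::eYFPflx on a C57BL/6 background, a model in which the Arc promoter drives an inducible Cre and so labels only cells that express Arc when the drug is given. Trained mice learned to avoid an active shock zone on a rotating arena, and untrained mice had the same sessions with the shock off. Each mouse of either group received 4-hydroxytamoxifen under isoflurane before the retention test, and tissue was collected 3 days after that test.

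These proteins bind calcium through the EF hand, a loop held between short helices. Calbindin (Calb1) and calretinin (Calb2) are taken mainly as buffers that shape calcium signals, and each is a classical marker of particular neuron types. Hippocalcin (Hpca), hippocalcin-like protein 4 (Hpcal4), neurocalcin delta (Ncald) and visinin-like protein 1 (Vsnl1) are neuronal calcium sensors, which carry a lipid anchor and move to membranes when calcium rises. Calm2 and Calm3 both encode calmodulin, the sensor that activates the CaM kinases and calcineurin and is needed for synaptic plasticity.

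The coding sequences show how closely the genes of each family are related, and they were read from the transcripts of the GRCm38 assembly with GENCODE vM21 annotation. Calm2 and Calm3 come first because their proteins cannot be told apart while their transcripts can: each has 447 coding bases, the translations are identical, and the coding bases differ at 78 positions. The first EF-hand loop, coding bases 61 to 96, is shown 5′ to 3′ with capitals where Calm3 differs from Calm2.
Calm2: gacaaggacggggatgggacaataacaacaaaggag
Calm3: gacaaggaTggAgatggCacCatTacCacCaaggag
They differ at 7 of these 36 bases. The same was done for the first matched loop of the 4 neuronal calcium sensor genes, coding bases 217 to 252, with capitals at the 14 positions where the 4 genes are not all alike.
Hpca: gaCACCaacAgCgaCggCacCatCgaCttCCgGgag
Hpcal4: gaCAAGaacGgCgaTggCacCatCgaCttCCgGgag
Ncald: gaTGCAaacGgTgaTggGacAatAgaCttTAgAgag
Vsnl1: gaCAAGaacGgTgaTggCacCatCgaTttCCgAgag
Calm2 and Calm3 each held 4 matches to the EF-hand loop pattern in its reading frame, each of the 4 sensor genes held 3, Calb1 held 4 and Calb2 held 5. The UMIs come from the 3′ ends of transcripts, so levels are compared here between regions and sections for the same gene and not between genes. In GRCm38 the genes lie at chr4:15881264-15908064 (Calb1, plus strand), chr8:110137502-110168210 (Calb2, minus), chr4:129111570-129122036 (Hpca, minus), chr4:123183227-123194701 (Hpcal4, plus), chr15:37366175-37792570 (Ncald, minus), chr12:11325242-11436613 (Vsnl1, minus), chr17:87433412-87446935 (Calm2, minus) and chr7:16915379-16924114 (Calm3, minus).

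The sections held 2359 to 3055 spots and 3560294 to 10330015 UMIs, and the median spot held 1048 UMIs in untrained 1, against 1851 to 2493 in the other 3 sections. Regions were called from lists of marker genes that hold none of the 8 genes, and the UMIs of all spots of a region were added within each section. CA1 took 55 to 74 spots a section, CA3 20 to 41, the dentate gyrus (DG) 67 to 76, cortex 183 to 365 and thalamus 215 to 353. Each region's own marker list was at least 2.19 times as high there as in any other of these 5 regions of the same section. The same lists were used to call the regions, so such an excess was built in and is no independent check. The section of untrained 1 lay at the top edge of the array and lacked dorsal cortex. The tissue under a spot is a mixture of cells, and in such sums fewer cells of a type and less RNA per cell cannot be told apart. Levels are given as counts per 1000000 UMIs of the region (CPM).

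**Figure D1:**
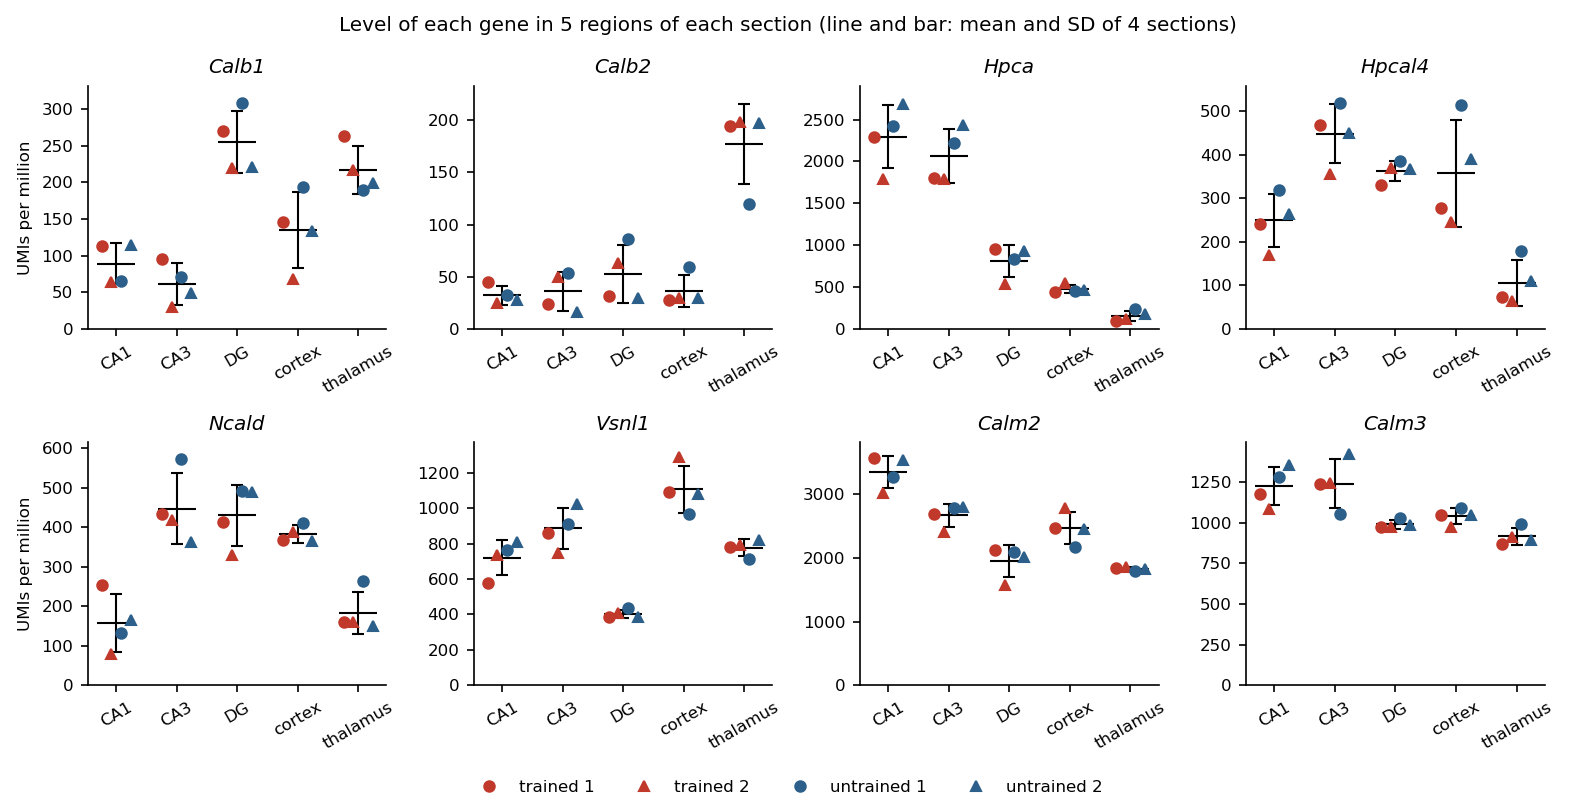
Level of each of the 8 genes, in CPM on linear axes that start at 0, in 5 regions of each section; red marks are trained and blue marks untrained sections, circles are section 1 and triangles section 2 of each condition, and the line and bar are the mean and SD of the 4 sections. Hpca is highest in CA1 and CA3, Calb2 in the thalamus, Vsnl1 in cortex, and Ncald is low in CA1 in all 4 sections.

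Calb1, the buffer that marks dentate granule cells, was highest in the DG among these 5 regions and lowest in CA3. In the DG it stood at 270.0 and 220.1 CPM in the trained sections and at 308.1 and 221.1 CPM in the untrained sections. In CA3 the same sections gave 95, 29.3, 71.5 and 48.3 CPM, each below the lowest DG value. These CA3 values rest on few UMIs, seen in 12, 7, 3 and 6 spots. The log2 difference between CA3 and DG was -2.12 ± 0.30, with an adjusted p of 3.15e-07 by edgeR's quasi-likelihood test with Benjamini-Hochberg adjustment, the test used for every region and training difference below. Each ± value is the SE from that fit, in which the spread is moderated across genes, and not an SE over 4 section values. CA1, at 112.5, 63.9, 65.5 and 114.1 CPM, was also below the DG in every section (log2 difference -1.45 ± 0.24, adjusted p = 1.25e-05). CA1 and CA3 overlapped, and their log2 difference of 0.67 ± 0.37 did not pass (adjusted p = 0.368). Within cortex Calb1 was a gene of the upper layers: it stood at 289.9, 160.7, 246.5 and 182.0 CPM in upper-layer spots, and at 43.0 to 139.8 CPM in layer 5 and 52.8 to 154.4 CPM in layer 6. The upper layers were above layers 5 and 6 in each of the 4 sections. The thalamus held 262.9, 217.2, 189.7 and 199.0 CPM, a range that overlapped that of the DG.

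Calb2, the buffer that marks subsets of GABA neurons and midline thalamic cells, had its highest level outside the hippocampus and cortex. Spots called as medial habenula, a small epithalamic nucleus, held 772.8 and 417.2 CPM in the trained and 643.7 and 549.2 CPM in the untrained sections. The hypothalamus followed at 264.1, 404.6, 300.3 and 254.4 CPM. The thalamus came next at 194.8, 198.3, 119.8 and 197.4 CPM, and the ranges of these 3 regions did not overlap. In CA1, CA3, DG and cortex the gene lay between 16.1 and 86.6 CPM, and no contrast among these 4 regions passed the test. In CA3, for example, only 5.4% to 26.3% of spots a section held a Calb2 UMI, so these contrasts could miss a difference. Cortex was below the thalamus (log2 difference -2.57 ± 0.16, adjusted p = 7.06e-20), and so was the mean of the 3 hippocampal layers (-2.34 ± 0.18, adjusted p = 2.27e-16). The summed level of a list of 6 GABA neuron markers ran the other way, at 1360 to 1599 CPM in cortex and 332 to 602 CPM in the thalamus.

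**Figure D2:**
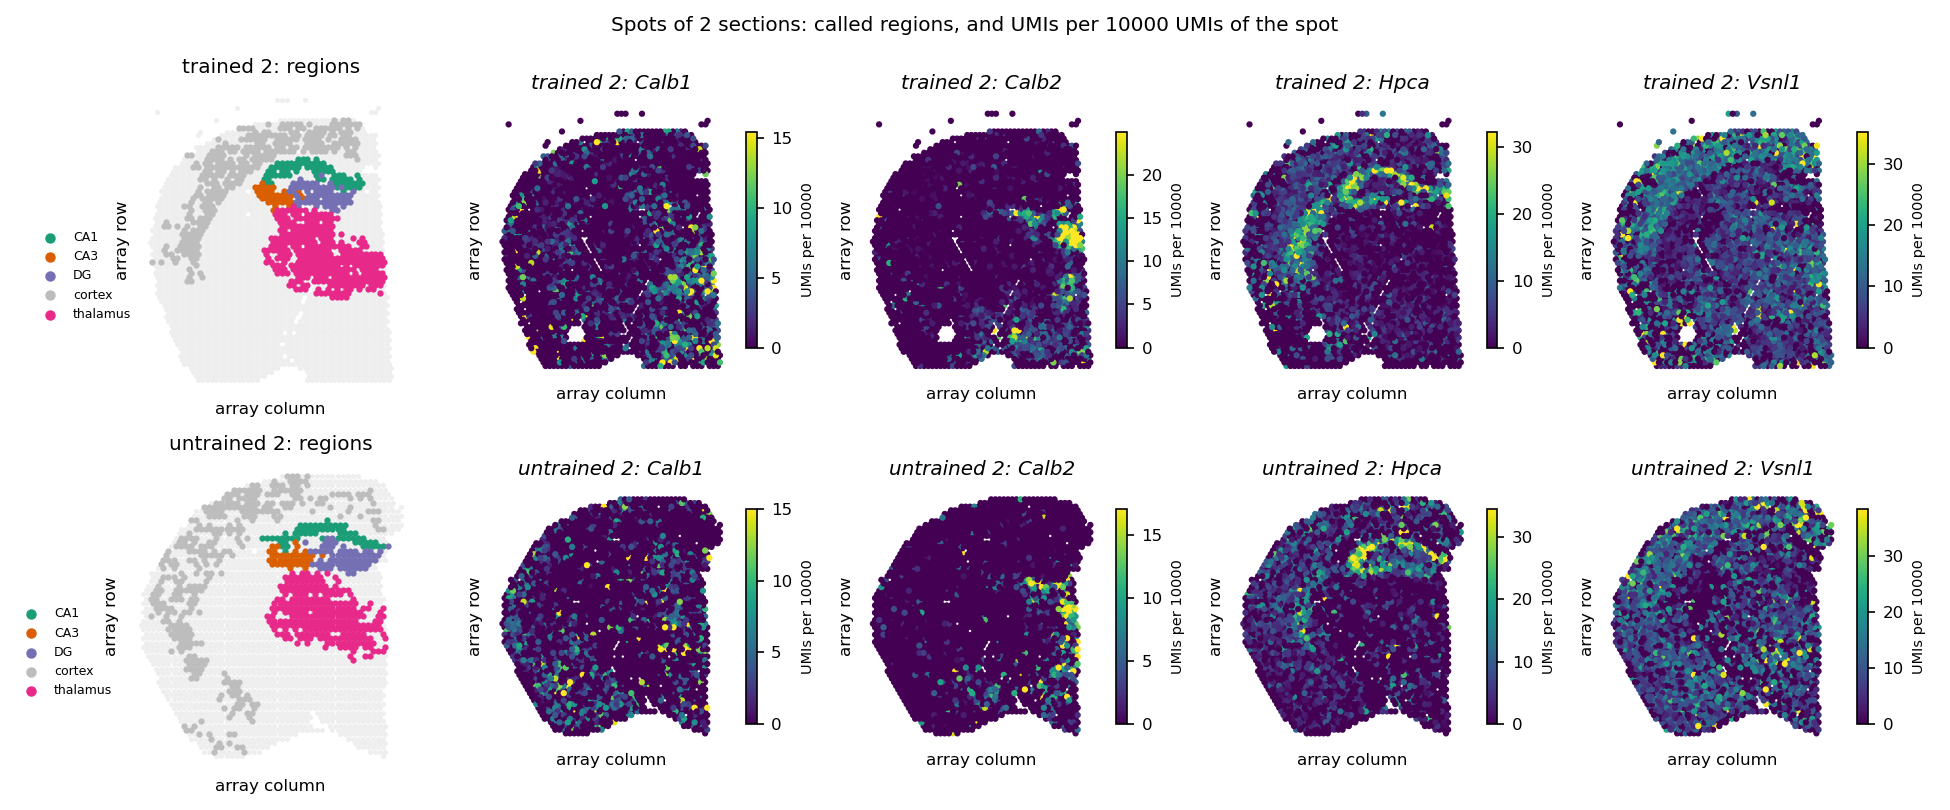
Maps of the spots with at least 200 UMIs in trained 2 (top) and untrained 2 (bottom), placed by array column and array row; the left panels show the 5 called regions and the others show Calb1, Calb2, Hpca and Vsnl1 as UMIs per 10000 UMIs of the spot, with the colour capped at the 99th percentile of each panel. Hpca traces the hippocampal cell layers, Calb2 fills a patch by the midline above the thalamus, and Vsnl1 is spread over cortex and thalamus.

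Hpca, the sensor named for the hippocampus, where it is needed for forms of synaptic depression, had the widest span of the 8 genes between hippocampus and thalamus. Its CA1 level was 2289 and 1794 CPM in the trained sections and 2424 and 2688 CPM in the untrained sections. CA3 was close to it, at 1800, 1791, 2216 and 2440 CPM, and the contrast of CA1 with CA3 did not pass (log2 difference 0.19 ± 0.12, adjusted p = 0.444). The DG held less, 952.8, 539.1, 837.6 and 926.2 CPM, and its range lay below those of CA1 and CA3. The difference was 1.48 ± 0.12 for CA1 over DG (adjusted p = 2.18e-13) and 1.28 ± 0.13 for CA3 over DG (adjusted p = 3.60e-11). Cortex gave 443.8 to 545.5 CPM and the thalamus 96.7 to 233.0 CPM. The mean of the hippocampal layers was above cortex by 1.69 ± 0.10 (adjusted p = 2.76e-20) and above the thalamus by 3.41 ± 0.12 (adjusted p = 5.84e-30). Outside these regions the striatum ranked next after CA3 by mean, at 934.2 to 1522 CPM, and overlapped the DG.

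Hpcal4, a close relative of Vsnl1 at the protein level, did not follow Hpca inside the hippocampus. It was lower in CA1 than in CA3 in every section, at 241.9, 170.5, 319.3 and 264.7 CPM against 469.2, 355.6, 518.3 and 450.9 CPM (log2 difference -0.89 ± 0.17, adjusted p = 0.000203). It was also lower in CA1 than in the DG, where it stood at 329.5, 368.4, 385.1 and 367.1 CPM (-0.62 ± 0.17, adjusted p = 0.00752). Both calls were lost with thinned sums (adjusted p = 0.0649 and 0.112) and without the section block (adjusted p = 0.0905 and 0.185), and the second also without trained 2 (adjusted p = 0.0779). CA3 and DG overlapped and did not differ by the test (0.27 ± 0.16, adjusted p = 0.285). Cortex spread widely, from 245.8 CPM in trained 2 to 514.8 CPM in untrained 1, and layer 6 was its highest layer in each section. The thalamus was low throughout, from 64.0 to 179.7 CPM, with cortex above it by 1.80 ± 0.13 (adjusted p = 6.12e-18).

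Ncald, a sensor found in many neuron types, had its CA1 level below those of CA3, DG and cortex in every section. CA1 held 253.1 and 79.2 CPM in the trained and 131.0 and 164.3 CPM in the untrained sections. CA3 held 433.6, 418.4, 572.0 and 362.4 CPM and the DG 412.9, 328.0, 491.0 and 488.1 CPM, with no overlap with CA1. CA1 lay below CA3 by -1.52 ± 0.19 on the log2 scale (adjusted p = 1.93e-08) and below the DG by -1.51 ± 0.18 (adjusted p = 2.31e-09), while CA3 and DG differed by 0.00 ± 0.15 (adjusted p = 0.999). The low value in trained 2 came from CA1 spots whose summed GABA neuron markers (1973 CPM against 811 to 1045), astrocyte markers (1392 CPM against 790 to 958) and white matter markers (3815 CPM against 2243 to 2665) were the highest of the 4 sections, with every marker of these lists detected, and their part in the result was not tested. Cortex held 366.5, 386.6, 411.4 and 365.4 CPM, and the mean over the 3 hippocampal layers was below it (-0.32 ± 0.10, adjusted p = 0.0108), although by mean CPM only CA1 (157) was lower than cortex (382) and CA3 (447) and DG (430.0) were above it. This was a call that was lost with DESeq2 (adjusted p = 0.0598) and without trained 2 (adjusted p = 0.0774). The mean of the layers was above the thalamus by 0.77 ± 0.12 (adjusted p = 1.80e-07), but the CA1 mean (157 CPM) was below that of the thalamus (183 CPM).

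Vsnl1, a sensor that is abundant in forebrain neurons, was the only one of the 4 whose mean among the 5 regions was highest in cortex. It stood there at 1093, 1288, 968.1 and 1083 CPM, and each value was above every value of the DG. The DG held 385.1, 408.8, 433.2 and 383.8 CPM, its lowest level among the 5 regions, with a spread of 23.4 CPM (SD, n = 4). Both pyramidal layers were higher, CA1 by 0.84 ± 0.12 (adjusted p = 7.96e-07) and CA3 by 1.08 ± 0.13 (adjusted p = 4.86e-09). CA1 and CA3 did not differ by the test (-0.23 ± 0.12, adjusted p = 0.308), although CA1 was the lower in all 4 sections. The mean over the 3 hippocampal layers was below cortex (-0.81 ± 0.08, adjusted p = 1.11e-12) and below the thalamus (-0.34 ± 0.08, adjusted p = 0.000542). The DG was the lowest of the layers, and CA3 (mean 886 CPM) lay above the thalamus (mean 778 CPM) in 3 of 4 sections. The thalamus held 712.3 to 821.8 CPM.

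Among the 5 regions Calm2 stood highest in CA1 in each of the 4 sections, at 3566, 3021, 3275 and 3537 CPM, with no overlap with CA3, DG, cortex or thalamus. In trained 2 the striatum, at 3058 CPM, was slightly higher than CA1. CA3 held 2685, 2402, 2788 and 2802 CPM, and the excess of CA1 was small but passed (0.37 ± 0.10, adjusted p = 0.0172). That call was lost without trained 1 (adjusted p = 0.190) and without untrained 2 (adjusted p = 0.136). The DG held 2124, 1572, 2089 and 2015 CPM, below CA1 by 0.78 ± 0.10 (CA1 minus DG, adjusted p = 8.59e-08). Calm3 varied less between regions, from 869.0 to 1425 CPM over all 20 sums. It was higher in CA3 than in DG (0.31 ± 0.11, adjusted p = 0.0434), a call lost without trained 1 (adjusted p = 0.206) and without untrained 2 (adjusted p = 0.352), and its CA1 minus DG difference of 0.29 ± 0.10 just missed (adjusted p = 0.0636). The contrast of CA1 with CA3 gave -0.02 ± 0.11 for Calm3 (adjusted p = 0.963).

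Across all tested genes the contrasts differed in how many they called, and the counts of the 8 genes are read against that background. Between CA1 and CA3, 6.18% of 6147 genes were called, and of the 8 genes Calm2 was higher and Hpcal4 and Ncald lower in CA1. With thinned sums, and without the section block, only 1 of the 8 was called. Between CA1 and DG 11.3% were called, and 6 of the 8 genes were: Hpca, Vsnl1 and Calm2 higher and Calb1, Hpcal4 and Ncald lower in CA1. Between CA3 and DG 15.1% were called, and 5 of the 8 genes were: Hpca, Vsnl1, Calm2 and Calm3 higher and Calb1 lower in CA3. With thinned sums 3 of the 8 were called, and 3 to 5 with a section left out. For the mean of the 3 hippocampal layers against cortex 22.1% of genes and 3 of the 8 were called, with Hpca higher and Ncald and Vsnl1 lower, the Ncald mean being below cortex in CA1 alone. For that mean against the thalamus 39.3% of genes and all 8 of the calcium-binding genes were called, 5 higher and 3 lower (Calb1, Calb2 and Vsnl1). Under the alternatives as few as 6 of the 8 were called. The sign is that of the mean and not of each layer: Calb1 in the DG was above the thalamus in all 4 sections, Vsnl1 in CA3 was above it in 3 of 4, and Ncald in CA1 was below it in 2 of 4. Between cortex and thalamus 33.9% of genes and 7 of the 8 were called, with Calb1 and Calb2 lower and Hpca, Hpcal4, Ncald, Vsnl1 and Calm2 higher in cortex. With thinned sums the calls of Calb1 (adjusted p = 0.656) and Calm2 (adjusted p = 0.136) were lost and Calb2 was not among the genes tested. The Calb1 value of this last contrast, -0.92 ± 0.13, in the fit of all UMIs, had the same sign in 3 of 4 sections, since the cortex of untrained 1 (193.6 CPM) held slightly more than its thalamus. The median absolute log2 difference of the 8 genes exceeded that of all tested genes in each of the 6 contrasts, from 0.20 against 0.19 for the hippocampal layers and cortex to 1.01 against 0.23 for cortex and thalamus, the first pair being nearly equal. The 8 genes were chosen with earlier results of these data known, so these comparisons with all genes are descriptions only.

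**Figure D3:**
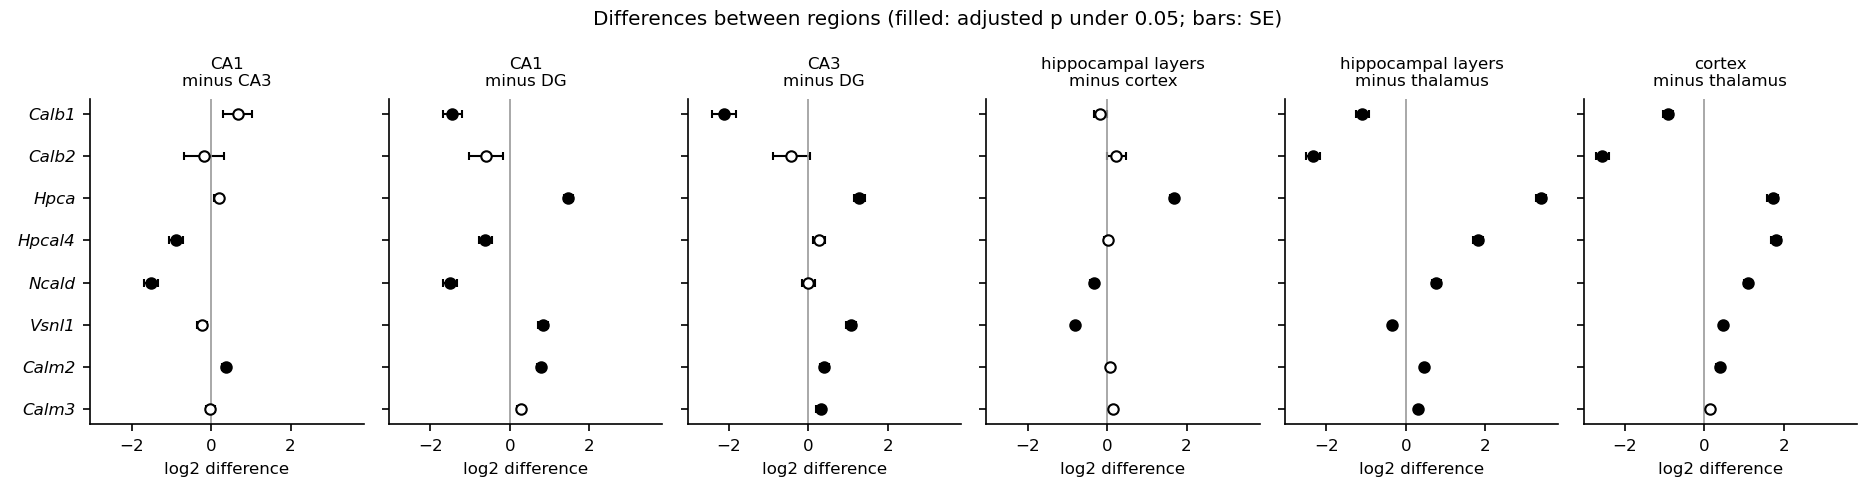
Log2 differences between regions for the 8 genes in 6 contrasts, with bars for the SE from the fit to the sums of all 4 sections and filled points where the adjusted p was under 0.05. The hippocampal layers minus thalamus panel is filled for all 8 genes, from -2.34 for Calb2 to 3.41 for Hpca.

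Other genes of the pathway were counted from 2 lists. The first holds 18 EF-hand sensors and buffers other than the 8 genes, of which 16 were tested. Of these, 2 were called between CA1 and CA3, 5 between CA1 and DG and 5 between CA3 and DG. Of all tested genes 6.18%, 11.3% and 15.1% were called in these contrasts. Cabp1, a calmodulin relative that binds calcium channels, was lower in CA1 than in CA3 (-0.81 ± 0.22, adjusted p = 0.0168). Pvalb (parvalbumin), the buffer of fast-spiking GABA neurons, was lower in the DG than in CA1 (CA1 minus DG 1.23 ± 0.21, adjusted p = 2.44e-05). For the hippocampal layers, 11 were called against cortex (3 higher, 8 lower) and 14 against the thalamus (5 higher, 9 lower), and 12 were called between cortex and thalamus (6 higher, 6 lower). The shares over all tested genes were 22.1%, 39.3% and 33.9%. Cabp7, also a calmodulin relative, was higher in the hippocampal layers than in cortex (3.31 ± 0.15, adjusted p = 2.88e-25) and in the thalamus (4.16 ± 0.18, adjusted p = 2.18e-26).

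The second list holds 23 genes for calmodulin-binding kinases, phosphatases and other effectors, of which 19 were tested. Between CA1 and CA3 5 were called, between CA1 and DG 9, and between CA3 and DG 9, beside 6.18%, 11.3% and 15.1% of all tested genes. Adcy1, an adenylyl cyclase stimulated by calmodulin, was lower in CA3 than in the DG (-2.50 ± 0.15, adjusted p = 1.14e-18) and higher in CA1 than in CA3 (1.38 ± 0.17, adjusted p = 1.56e-08). For the hippocampal layers 18 were called against cortex (9 higher, 9 lower) and 17 against the thalamus (11 higher, 6 lower), and 13 were called between cortex and thalamus (8 higher, 5 lower). The shares over all tested genes were 22.1%, 39.3% and 33.9%. Nrgn (neurogranin), a postsynaptic protein that holds calmodulin when calcium is low, was higher in the hippocampal layers than in the thalamus (3.02 ± 0.13, adjusted p = 5.45e-26). Pcp4, a regulator of calcium binding by calmodulin, was lower there (-2.83 ± 0.09, adjusted p = 4.21e-31).

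The genes most like each member in their regional pattern were found by Pearson correlation over the 20 region sums, with each section's mean removed, among 7741 genes. The points share sections and regions, so these values are descriptions only. Hpca was closest to Numbl (r = 0.972), Ppp3r1 (r = 0.972), which encodes the regulatory subunit of calcineurin and is in the second list, and Zbtb18 (r = 0.961). Calb2 was closest to Ndrg2 (0.910), Tcf7l2 (0.907), which was itself used to call the thalamus, and Shox2 (0.904). Hpcal4 was closest to Nptx1 (0.952), used to call CA3, and Srgap3 (0.934) was also among its nearest genes. For the other genes the nearest were Tiam1 for Calb1 (0.901), Synpr for Ncald (0.888), Map1lc3a for Vsnl1 (0.916), Abracl for Calm2 (0.907) and Zmat2 for Calm3 (0.907). Among the 8 genes themselves, Hpca and Calm3 had the highest correlation (0.828) and Calb2 and Hpca the lowest (-0.804).

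The comparison of trained with untrained sections asks whether the levels of these genes differed in mice that held the shock-zone memory. With 2 sections a group an exact permutation test of a single value cannot go below p = 0.333, so the edgeR fit across all genes was used. Over whole sections 0 of the 8 genes passed, against 0.0145% of 13810 genes, and 2 of the 8 had an unadjusted p under 0.05, as did 1099 of all genes. Hpcal4 had the smallest of these values. It stood at 216.7 and 173.2 CPM in the trained sections and at 376.4 and 309.0 CPM in the untrained sections, with no overlap (log2 difference -0.89 ± 0.16, adjusted p = 0.263). DESeq2 called 1 of the 8, Hpcal4, at an adjusted p of 0.000227. Leaving out trained 2 also called Hpcal4 (40 of all genes called), and leaving out trained 1 called Hpcal4, Ncald and Calb2 (848 of all genes). In such fits the remaining section of the group is assumed to vary like the other group. The striatum marker list of the whole sections was higher with training (367 and 462 CPM against 255 and 259) and the CA1 list lower (212 and 193 CPM against 255 and 243). The DG list was also lower (201.7 and 155.7 CPM against 204.2 and 212.0) and the layer 6 list also higher (155.6 and 153.1 CPM against 150.3 and 150.9). The part of these lists in the Hpcal4 values was not tested. Ncald stood at 261.5 and 240.7 CPM in the trained and 318.8 and 308.0 CPM in the untrained sections (-0.39 ± 0.12, adjusted p = 0.564).

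In the thalamus Hpca and Hpcal4 were the 2 of the 8 genes called, both lower in trained sections, where 0.138% of 8665 genes were called. Hpca stood there at 96.7 and 118.0 CPM in the trained and at 233.0 and 174.9 CPM in the untrained sections (-0.94 ± 0.19, adjusted p = 0.0106). Hpcal4 stood at 72.2 and 64.0 CPM in the trained and at 179.7 and 109.1 CPM in the untrained sections (-1.09 ± 0.22, adjusted p = 0.0106). For both genes untrained 1, the shallowest section, held the highest value. Without untrained 1 neither gene passed (adjusted p = 0.559 for Hpca and 0.766 for Hpcal4), without trained 2 Hpcal4 did not pass (adjusted p = 0.584), and with DESeq2 neither did (adjusted p = 1.0). Neither gene passed with thinned sums (adjusted p = 0.878 for each), with regions from each spot alone (0.742 for each) or with the stricter region threshold (0.0544 for Hpca and 0.173 for Hpcal4). The thalamic spots of untrained 1 also had the highest sums of the GABA neuron list (602 CPM against 332 to 369), of the CA1 list (116 CPM against 57.1 to 79.0) and of the upper-layer cortex list (220 CPM against 153 to 180). Other lists separated by training in the thalamus, with striatum (215 and 218 CPM against 169.8 and 166.9) and microglia (285 and 298 CPM against 259.6 and 258.4) higher and astrocytes (1497 and 1517 CPM against 1648 and 1599) lower in trained sections. All genes of these lists had UMIs there except 1 of the 5 CA1 markers in trained 1 and 1 of the 6 striatum markers in each untrained section, and the part of these in the result was not tested. Nrgn moved with the pair in the thalamus (-1.01 ± 0.21, adjusted p = 0.0106) and was the only one of the 20 tested effectors called there. None of the 15 tested EF-hand genes was called in the thalamus, and Pvalb had the smallest p among them (0.41 ± 0.18, adjusted p = 0.704).

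Within the hippocampus 0 of the tested members passed in CA1, CA3 or DG, where 0.118% of 4239, 0% of 3300 and 0% of 5043 genes were called, and DESeq2 also called 0 in each. In CA1 2 of 7 tested members had an unadjusted p under 0.05, Hpca (-0.34 ± 0.17) and Hpcal4 (-0.53 ± 0.26), each with an adjusted p of 0.778. Of all 4239 genes, 264 were under that unadjusted limit. In these CA1 spots the CA1 list was lower with training (1024 and 913 CPM against 1040 and 1086), and the microglia list (321 and 381 CPM against 246 and 256) and blood list (675 and 399 CPM against 344 and 269) were higher, with every marker detected, and their part was not tested. In CA3 Hpca alone was under 0.05 unadjusted (-0.37 ± 0.17, adjusted p = 0.862), and in the DG none of the 8 was. Among the lists in the CA3 spots, the CA3 list was lower with training (1318.5 and 1209 CPM against 1341 and 1433). The DG list (160 and 134 CPM against 125 and 129) and layer 5 list (125 and 130 CPM against 53.6 and 88.6) were higher, with some of their markers at 0. The part of these lists was not tested. Calb2 was too low to be tested in CA1 and CA3. For Ncald in the DG the difference did not pass (-0.33 ± 0.23, adjusted p = 0.997), though both trained values lay below both untrained values. Calm3 in the DG stood at 972.7 and 974.9 CPM with training against 1030 and 984.6 without it, while its fitted log2 difference was 0.03 ± 0.24 (adjusted p = 0.998). In cortex 0 of the 8 passed, with edgeR or DESeq2, against 0.00958% of 10438 genes, with an unadjusted p under 0.05 for Hpcal4 (-0.88 ± 0.18, adjusted p = 0.307) and Calb1 (-0.69 ± 0.30, adjusted p = 0.809). Without untrained 2 Hpcal4 passed in cortex (adjusted p = 0.00666), as it did with no filter on low counts (adjusted p = 0.00297). The scaling between libraries moved all genes by -0.11 on the log2 scale in the cortex contrast and by less than 0.08 in the others. The cortex of trained 2, which had the lowest Calb1 value (67.6 CPM), held 71 upper-layer spots of 342, against 129 of 357 in trained 1, 80 of 183 in untrained 1 and 130 of 365 in untrained 2. Among the lists in cortex, the layer 6 list was higher with training (333 and 365 CPM against 231 and 237). The DG list was lower there (166 and 156 CPM against 196 and 185). The part of these lists in the cortex values was not tested.

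**Figure D4:**
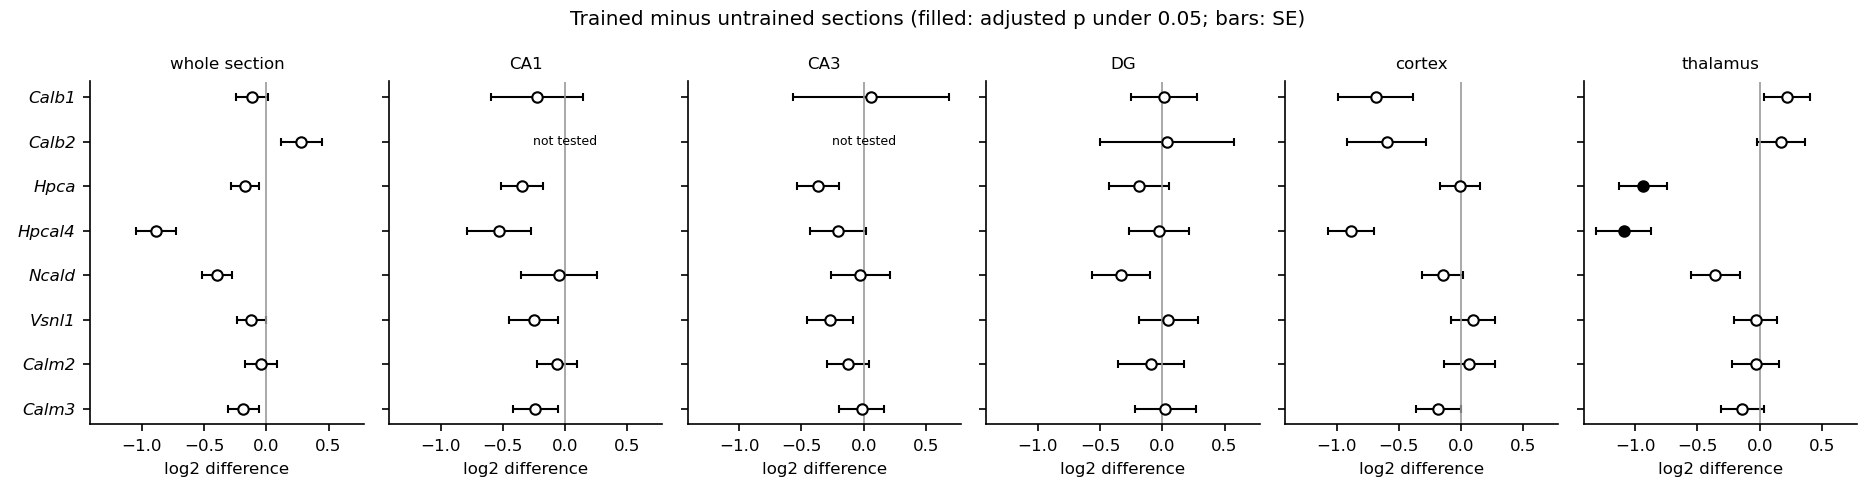
Trained minus untrained log2 differences of the 8 genes over whole sections and in 5 regions, with bars for the SE and filled points where the adjusted p was under 0.05. Only Hpca (-0.94) and Hpcal4 (-1.09) in the thalamus are filled, and Calb2 was not tested in CA1 and CA3.

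Hpcal4 was also followed over the 12 regions called in all sections. Both trained values lay below both untrained values in 8 of them, and in none was the order turned. These were CA1, upper, layer 5 and layer 6 cortex, thalamus, medial habenula, hypothalamus and striatum, while the groups overlapped in CA3, DG, white matter and choroid plexus. In the hypothalamus, for example, the trained sections held 148.3 and 174.2 CPM and the untrained 357.7 and 321.8 CPM. In layer 6 they held 398.2 and 399.9 CPM against 656.3 and 612.7 CPM. Of 13810 genes, 0.188% had both trained values below both untrained values in 8 or more regions. Hpcal4 was followed because it had the smallest training p over whole sections, and the limit of 8 regions is its own count, so this share is a description and supports nothing. Regions of a section share its library and animal, so they are not independent. The other 7 genes had both trained values lower in 2 to 4 regions each and both higher in 0 to 4, with Calb1 higher in 4 and lower in 2 and Calm2 higher in 3 and lower in 2. Over all genes tested the medians were 1 region lower and 2 higher. Whether training differences depended on the region was tested over 20 sums, where 0.0163% of 6147 genes and 0 of the 8 were called, with 283 of all genes under an unadjusted p of 0.05. The members nearest to a call were Hpcal4 (adjusted p = 0.597), Hpca and Calb1 (adjusted p = 0.924 each), and all 3 passed when trained 1 was left out, a fit that called 77 of all genes and held a single trained section.

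Outside the thalamus, 0 genes of either pathway list passed in a training contrast. The smallest p among the EF-hand genes was that of Pvalb over whole sections (0.81 ± 0.14, adjusted p = 0.220), in CA1 (1.14 ± 0.30, adjusted p = 0.134) and in CA3 (0.99 ± 0.38, adjusted p = 0.862), of S100b in the DG (0.89 ± 0.36, adjusted p = 0.997) and of Hpcal1 in cortex (-1.18 ± 0.25, adjusted p = 0.307). Among the effectors it was Camkv, a kinase-like calmodulin-binding protein, over whole sections (-0.47 ± 0.12, adjusted p = 0.497) and in CA1 (-0.66 ± 0.21, adjusted p = 0.322). Nrgn had it in CA3 (-0.43 ± 0.17, adjusted p = 0.862), the calcineurin gene Ppp3cb in the DG (-0.54 ± 0.27, adjusted p = 0.997) and Camk2a in cortex (-0.66 ± 0.23, adjusted p = 0.799).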

How the data were processed

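Visium libraries of 1 section from each of 4 mice were used. The deposited files held raw UMI counts per spot and gene. Per the methods the authors made them with Space Ranger 2.0.0 on mm10-2020-A, the file headers name Space Ranger 1.2.2, and the processing notes list other builds and tools, so the version is not settled. Reads had been trimmed with TrimGalore 0.6.5. Spots were given regions by the mean z-score of each marker list, equal parts own spot and neighbours, at a score of at least 1 and a lead of 0.25, and linked groups were kept. UMI counts were summed per region and section, and CPM was computed from the sums. Tests used edgeR 4.0.16 in R 4.3.3 (TMM, filterByExpr, quasi-likelihood F-test, Benjamini-Hochberg over all genes tested, threshold 0.05). Region contrasts were fitted to 20 sums with the section as a block, training contrasts to 4 sums. The study's methods compared spots with a rank-sum test. Spots of a section are not replicates, so sums were used. DESeq2 1.42.0, other filters, thinning, other region calls and leaving out each section were the alternatives. The fits were also run on simulated data, and that outcome is not given here. Members and lists were chosen with earlier results of these data known. The text names all 8 members, and in each region contrast at most 3 genes a list, ranked by size of change, that passed and kept their sign across the 4 sections, or in training contrasts those that passed or had the smallest p. Section was the level of replication. Some items are not reported here.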

Additional observations from a re-analysis of the deposited data

How the results depend on the processing

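Of the 48 region differences of the 8 genes, 32 were called and none of these changed sign under an alternative, while 23 were called under all of them. Of the 16 that were not called, 7 changed sign and 2 were called under an alternative. Of the 46 training differences, 2 were called, neither changed sign, and neither was called under all alternatives. Of the 44 that were not called, 22 changed sign and 5 were called under an alternative. With sums thinned to the smallest total the members called numbered 1 between CA1 and CA3 (3 in the fit as described), 3 between CA3 and DG (5), 4 between cortex and thalamus (7), 1 over whole sections (0) and 0 in the thalamus (2), and Calm3 between CA1 and DG turned to -0.11. Without the section block 1 was called between CA1 and CA3. Over the settings that kept all sections, the lowest counts were 5 between CA1 and DG (6 in the fit as described), 2 for the hippocampal layers against cortex (3) and 6 for them against the thalamus (8). With each section left out in turn the range was 2 to 3 between CA1 and CA3, 3 to 5 between CA3 and DG, 7 to 8 between cortex and thalamus, 0 to 3 for the interaction, 0 to 3 over whole sections, 0 to 1 in cortex and 0 to 2 in the thalamus. DESeq2 called 1 over whole sections and 0 in the thalamus. With no filter on low counts 1 was called over whole sections and 1 in cortex. Regions from each spot alone and the stricter region threshold each gave 0 in the thalamus, and they moved the mean of Hpcal4 in the DG from 363 to 388 CPM and that of Calb2 in the thalamus from 178 to 137 CPM, respectively. Replicate numbers did not pair the sections (r = 0.0182), and with the replicate block 1 member was called over whole sections (Hpcal4, adjusted p = 0.00299) and 2 in cortex (Calb1 and Hpcal4). Over all genes, thinning lowered the region calls from 380 to 121, from 692 to 151, from 929 to 284, from 1359 to 174, from 2418 to 445 and from 2081 to 248 (CA1 with CA3, CA1 with DG, CA3 with DG, hippocampal layers with cortex, hippocampal layers with thalamus, cortex with thalamus). Training calls over all genes ranged under the alternatives from 2 to 848 over whole sections (2), 0 to 29 in CA1 (5), 0 to 11 in CA3 (0), 0 to 61 in DG (0), 1 to 95 in cortex (1), 0 to 86 in the thalamus (12), and 0 to 77 for the interaction (1). Thinning leaves fewer UMIs by construction, and the cause of the other changes was not tested.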
